A study of Oryza sativa with 6 samples.

Results

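In rice leaves, 66 genes were at or below 3 counted fragments in every wild-type (WT) library and averaged more in those of the *Dap1* mutant. They were chosen from a table of 925 genes that the authors had called as differing between *Dap1* and WT, and they make up 7.14% of it. A gene entered when its fragment count was 3 or fewer in each of the 3 WT libraries. There were 77 such genes, and 11 of them were left out because they were *OsWUS*, *HSfA2a*, *Oshsp16.9A* or *Oshsp16.9B*, or were annotated to protein folding, the response to heat or protein processing in the endoplasmic reticulum. The rule used the WT counts of the comparison itself, so the difference between *Dap1* and WT of these genes is given as a description, with no test.

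*Dap1* plants carry a T-DNA inserted upstream of *OsWUS*, a gene for a homeodomain transcription factor of the meristem, in the japonica variety Zhonghua11 (ZH11). The mutation is dominant, plants of the mutant type were heterozygous for the insertion, no homozygous plant was found among the progeny, and *Dap1* is 1 insertion line. The *Dap1* group holds 3 libraries and the WT group holds 3 libraries of ZH11 without the insertion, all from fresh leaves at the booting stage, when the young panicle swells inside the sheath of the last leaf. All plants were grown in the field, and the day and temperature of sampling are not given in the sources used here. *Dap1* plants headed later than WT plants, so leaves of the same stage may have been taken on different days. A difference in sampling day or weather could not then be told apart from the genotype. Each library is a biological replicate of a whole leaf sample, so a change in the number of cells of a type and a change in the RNA per cell cannot be told apart.

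Many plant genes are silent in a mature leaf. Some are used only in seeds, pollen or meristems, others answer only to heat, drought or pathogens, and some annotated loci are non-coding or doubtful models that overlap or lie next to an active gene. In a leaf under heat stress, heat shock factors bind heat shock elements and switch on genes for chaperones, which are almost silent without stress. Of the 66 genes, 29 (43.9%) have a description that names them hypothetical, unknown, uncharacterised or non-coding. Some of these carry a symbol or another annotation, such as *OsRALF-32* and *Os11g0707100*, and are placed by role below.

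The count on the 925 listed genes was 601642 to 666483 per *Dap1* library and 244181 to 314019 per WT library. The listed genes had been chosen for changing, so these totals are not sequencing depths, and library sizes were taken from the ratio of count to FPKM (the count divided by transcript length and by the mapped fragments of the library). The relative sizes lay between 0.952 and 1.06 in *Dap1* and between 0.862 and 1.11 in WT, so a WT count near 0 does not go with a small library. *OsWUS* (*Os04g0663600*, listed as *WOX1*) had 77, 100 and 105 fragments in *Dap1*, against 0, 0 and 0 in WT, the order that the labels give. Of the genes that define a green leaf, none of the chlorophyll a/b-binding proteins or small subunits of Rubisco is among the listed genes, so the tissue could not be checked on its main markers.

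All 66 members were called higher in *Dap1* by edgeR's quasi-likelihood test, at a Benjamini-Hochberg adjusted p under 0.05 and a log2 fold change over 1, where 56.9% of all listed genes were called higher and 41.7% lower. The lowest *Dap1* count lay above the highest WT count in all 66, as in 56.5% of the listed genes. Both counts follow from the rule and from the authors' selection and carry no further weight.

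Together the members held 5889, 6519 and 6156 fragments in *Dap1* libraries 1, 2 and 3, against 51, 44 and 62 fragments in WT libraries 1, 2 and 3. Their summed FPKM was 336, 344 and 317 in *Dap1* and 2.14, 2.55 and 3.01 in WT. A few genes carried most of this. The most abundant member took 32.2% of the members' counts in *Dap1* and the first 4 took 57.3%, as shares of fragments and not per length. The other end is crowded: 36 members averaged under 20 fragments per *Dap1* library, 14 averaged 20 to under 50, and 16 averaged 50 or more. On the per-length scale, 34 members (51.5%) had a mean FPKM under 1 in *Dap1*, 12 had 5 or more, and the median was 0.837, with a range of 0.127 to 108.

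In WT, 24 members had 0 fragments in all 3 libraries, 22 had 1 to 3 fragments in total and 20 had 4 to 8. No member exceeded an FPKM of 0.32 in a WT library. For the 24 members at 0 a count of 3 fragments per WT library was taken as the floor, and they were at least 2.51-fold to at least 202-fold higher in *Dap1*, with a median bound of 6.48-fold. In the other 42, the ratio of the summed counts, scaled by library size, ran between 4.34 and 1171 with a median of 19.6. The 95% counting intervals given with single ratios below cover counting error only. The bounds set the *Dap1* mean against the floor and leave out the counting error and the spread of that mean. Values below are given in the order of libraries 1, 2 and 3.

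The median FPKM in *Dap1* was 0.837 in the members, against 14.2 (range 0.183 to 282) in the 11 genes at or below the same limit that the rule left out, mostly heat shock protein genes. Over all 859 listed genes outside the members it was 1.94.

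**Figure D1:**
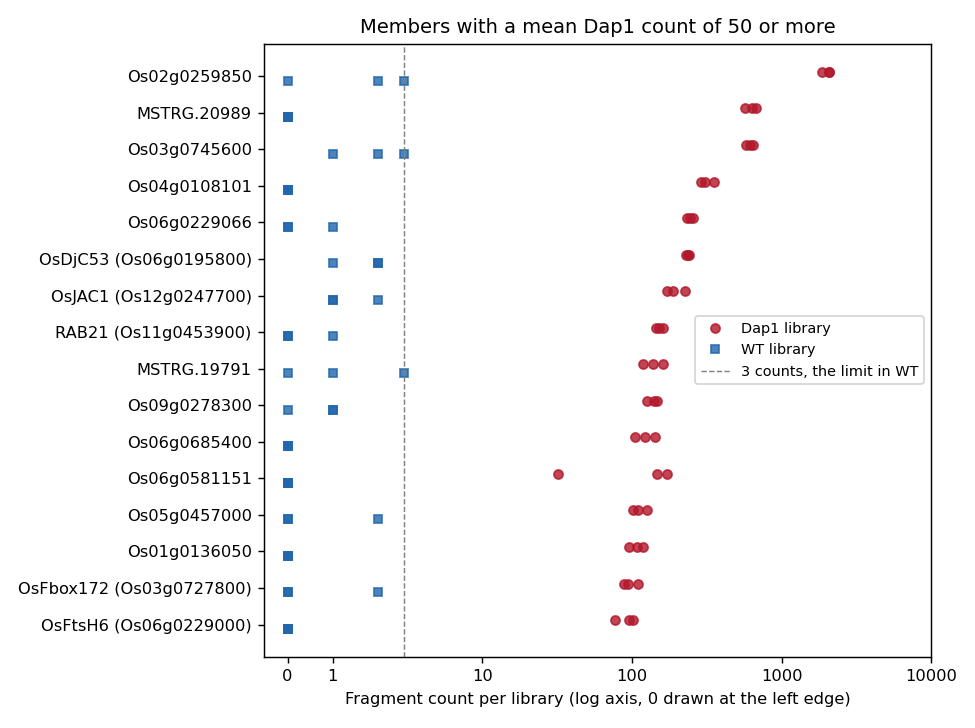
Fragment counts (log axis, 0 at the left edge) of the 16 members with a mean *Dap1* count of 50 or more, 1 point per library, with *Dap1* libraries as circles and WT libraries as squares. Every WT point is at or left of the dashed limit of 3 counts, and in 15 of the 16 members the highest *Dap1* count is less than 3 times the lowest, the exception being *Os06g0581151* with counts of 171, 146 and 32.

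The most abundant member was *Os02g0259850* on chromosome 2, described as a hypothetical gene, with counts of 1845, 2074 and 2059 in *Dap1* and 0, 3 and 2 in WT. Its ratio was 1171 (95% counting interval 501 to 3608) and its level in *Dap1* was 108 ± 2.05 FPKM (SD, n = 3). The nearest listed locus is *Os02g0259900*, a conserved hypothetical protein, with 4734, 5154 and 5515 fragments in *Dap1* and 7, 2 and 8 in WT. The count of *Os02g0259850* was 39.0%, 40.2% and 37.3% of that of *Os02g0259900* in the *Dap1* libraries, a share of fragments and not of levels per length. Both genes varied little between these libraries (SD of scaled counts 1.90% and 2.73% of the mean). A steady share follows from that and shows no link between them.

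The transcript *MSTRG.20989*, assembled by the authors and described as *Os11g0263732*, had counts of 565, 678 and 636 in *Dap1* and 0, 0 and 0 in WT, at least 202-fold higher in *Dap1*. That was the highest bound among the 24 members with no WT fragment. *Os03g0745600* on chromosome 3, of the UPF0005 family whose known members include the Bax inhibitor that restrains cell death, had counts of 576, 642 and 613 in *Dap1* and 2, 1 and 3 in WT. The ratio was 299 (interval 137 to 815), with 32.3 ± 1.11 FPKM in *Dap1*. In locus number it lies 600 from *HSfA2a*, the heat stress transcription factor that the rule left out. *HSfA2a* had 6909, 7491 and 7314 fragments in *Dap1* and 0, 2 and 1 in WT. It is too far off to count as a neighbour by the distance used below. Other members also had listed genes beyond that distance, some called higher in *Dap1* (such as *SAMDC1*) and some lower (such as *OsNCED1*). The distance to *HSfA2a* alone therefore shows no link.

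*Os04g0108101*, a hypothetical protein on chromosome 4, had counts of 291, 354 and 309 in *Dap1* and 0, 0 and 0 in WT, at least 103-fold higher, and 42.9 ± 3.52 FPKM in *Dap1*. Its locus number lies 201 from the *Hsp90* gene *Os04g0107900*, just beyond the distance of 200 used below to call 2 loci neighbours. *Hsp90*, a cytosolic chaperone, had 2141, 2411 and 2390 fragments in *Dap1* and 0, 2 and 0 in WT, and the member's count was 13.6%, 14.7% and 12.9% of it.

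The remaining uncharacterised members above 50 fragments were *Os06g0685400*, with 143, 122 and 105 in *Dap1*, and *Os06g0581151*, with 171, 146 and 32. Neither had a fragment in WT, and the bounds were at least 40.1-fold and at least 38.3-fold. In the third *Dap1* library *Os06g0581151* stood far below the other 2. The other 22 uncharacterised members averaged under 50 fragments, at 0.26 to 4.37 FPKM in *Dap1*, and 1 of them carries a symbol, *OsEnS-114* (13, 12 and 12 in *Dap1*, 0 in each WT library, at least 4.0-fold).

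The 3 chaperone-related members had a median level of 10.5 FPKM in *Dap1*, the highest of the role groups. *OsDjC53* (*Os06g0195800*), a J-domain protein, belongs to the family of co-chaperones that pass unfolded clients to Hsp70 and stimulate its ATPase. It had counts of 235, 240 and 228 in *Dap1* and 2, 2 and 1 in WT, a ratio of 138 (interval 58.7 to 425), and 15.0 ± 1.01 FPKM in *Dap1*. *OsDjC10* (*Os01g0606900*), with the same N-terminal domain, was far lower at 0.453 ± 0.144 FPKM, with 11, 13 and 7 fragments in *Dap1* and 1, 1 and 0 in WT (ratio 15.2, interval 3.86 to 131). These 2 escaped the exclusion because the table gives them no folding or heat term.

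Of the other listed genes with a J-domain name, 6 of 6 were called higher in *Dap1*, with a median log2 fold change of 2.53. The rises were 4.02 ± 0.11 for *OsDjC62* and 1.31 ± 0.05 for *OsDjC23* (log2 fold change ± SE, edgeR adjusted p = 6.34e-21 and 2.49e-17). The whole table, of genes that the authors had already called as differing, had a median log2 fold change of 1.15, with 56.9% called higher. All 6 were expressed in WT above the limit of the rule.

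*Os01g0136050*, described as similar to a small heat shock protein, is the third chaperone-related member. It had counts of 108, 118 and 96 in *Dap1* and 0, 0 and 0 in WT, at least 34.8-fold higher, and 10.5 ± 1.27 FPKM in *Dap1*. It sits by number inside a row of class I small heat shock protein genes, whose products hold denatured proteins in solution during heat. *Oshsp16.9C*, 50 before it, had 193, 220 and 192 fragments in *Dap1* and 0, 0 and 0 in WT. *Oshsp16.9A*, 50 after it, had 3995, 4498 and 4554 in *Dap1* and 1, 0 and 3 in WT. *Oshsp16.9B* had 2293, 2409 and 2524 in *Dap1* and 3, 2 and 1 in WT. *Os01g0135900*, a further gene of the row, was not near 0 in WT, with 968, 1061 and 1099 in *Dap1* against 539, 407 and 482. These genes are close copies, and reads may have been shared among them, so the split of the counts is uncertain.

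**Figure D2:**
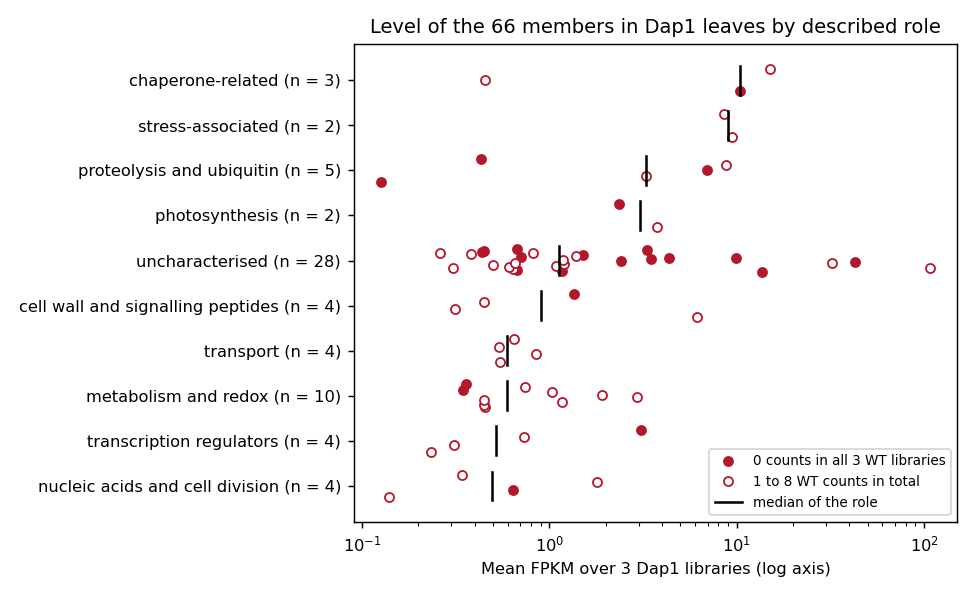
Mean FPKM over the 3 *Dap1* libraries (log axis) of each of the 66 members by described role, with the median of each role as a bar, filled points for the 24 members at 0 in all WT libraries and open points for the 42 with 1 to 8 WT fragments in total. Chaperone-related members have the highest median (10.5 FPKM), the uncharacterised ones spread widest (0.26 to 108 FPKM) and the transcription regulators lie at 0.233 to 3.08 FPKM.

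The stress-associated members were a dehydrin and a lectin. *RAB21* (*Os11g0453900*), described as dehydrin RAB 16D, belongs to hydrophilic proteins that accumulate in drying seeds and in leaves given abscisic acid or short of water. It had counts of 152, 145 and 160 in *Dap1* and 0, 1 and 0 in WT, a ratio of 448 (interval 79.9 to 17716) and 9.47 ± 0.612 FPKM in *Dap1*. The other 2 listed genes with a dehydrin or late embryogenesis abundant name were both called lower in *Dap1*, each with a log2 fold change of -1.54 ± 0.42 (SE, edgeR adjusted p = 0.00139). Those 2 loci have equal values and may share their reads. *OsJAC1* (*Os12g0247700*), annotated as carbohydrate binding and described as similar to a jasmonate-induced protein, had 170, 226 and 188 in *Dap1* and 2, 1 and 1 in WT (ratio 143, interval 55.5 to 527), and 8.55 ± 1.04 FPKM in *Dap1*.

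Proteolysis was represented by 5 members. FtsH proteins are ATP-dependent zinc metalloproteases of organelle membranes, and in Arabidopsis FTSH6 removes a small heat shock protein from chloroplasts after heat. *OsFtsH6* (*Os06g0229000*) had counts of 77, 101 and 96 in *Dap1* and 0, 0 and 0 in WT, at least 29.4-fold higher, at 6.94 ± 0.654 FPKM. The adjoining locus *Os06g0229066*, also described as FTSH 6, had 255, 234 and 244 in *Dap1* and 1, 0 and 0 in WT, a ratio of 718 (interval 128 to 28393), at 8.78 ± 0.824 FPKM. With a difference of 66 in locus number and the same description they may be parts of 1 gene model.

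*OsFbox172* (*Os03g0727800*), an F-box protein of the kind that picks substrates for SCF ubiquitin ligases, had 89, 110 and 94 in *Dap1* and 0, 0 and 2 in WT (ratio 143, interval 39.4 to 1190). *OsM2* (*Os01g0771400*), annotated as a deubiquitinating cysteine protease, was close to the limit at 4, 13 and 8 in *Dap1* and 0 in each WT library, at least 2.66-fold higher. An ankyrin repeat protein annotated to ubiquitination, *Os11g0219400*, had 7, 18 and 28 in *Dap1* and none in WT. Among the other listed genes with a ubiquitin, F-box or RING finger name, 6 of 11 were called higher and 5 lower. Of the 22 other listed genes with a protease or peptidase name, 8 were called higher, 1 of them a protease inhibitor, 13 were called lower and 1 was not called, with a median log2 fold change of -1.10.

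Of the 2 photosynthesis members, *OsPsbR2* (*Os07g0147550*), described as the 10 kDa polypeptide of photosystem II, a protein of the oxygen-evolving side, had 47, 54 and 34 in *Dap1* and 1, 0 and 1 in WT (ratio 66.1, interval 17.9 to 551). Its neighbour *PsbR* (*Os07g0147500*) had 27, 13 and 23 in *Dap1* and 13, 8 and 5 in WT, with a log2 fold change of 1.24 ± 0.43 (SE, edgeR adjusted p = 0.00771). The same description on both makes the split of reads between them uncertain. *Os11g0707100*, annotated as an activator of Rubisco, had 43, 43 and 46 in *Dap1* and 0 in each WT library, at least 14.2-fold higher.

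Metabolism and redox was the largest annotated role, with 10 members at 0.347 to 2.95 FPKM in *Dap1*. *Os09g0278300* carries a serine hydroxymethyltransferase description and a phosphatidylinositol phosphate 5-kinase annotation, and had 140, 146 and 125 in *Dap1* and 1, 1 and 0 in WT (ratio 201, interval 55.4 to 1667). Its neighbour *Os09g0278401*, a hypothetical protein, had 19, 16 and 16 in *Dap1* and 0 in each WT library, 13.6%, 11.0% and 12.8% of that count. *Os05g0457000*, with a domain of subunit VIIa of cytochrome c oxidase, the last enzyme of the mitochondrial electron chain, had 110, 101 and 126 in *Dap1* and 0, 0 and 2 in WT (ratio 165, interval 45.3 to 1368).

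The other 8 metabolic members averaged under 50 fragments. *OsGSTU24* (*Os10g0528100*), a tau class glutathione transferase of the family that conjugates toxic compounds to glutathione, had 12, 17 and 16 in *Dap1* and 3, 1 and 3 in WT (ratio 6.30, interval 2.82 to 16.5). *OsGSTU4*, 200 from *OsGSTU24* in locus number, had 143, 158 and 235 in *Dap1* and 15, 8 and 1 in WT, a log2 fold change of 4.43 ± 0.31 (SE, edgeR adjusted p = 3.05e-12), and 5 of the 6 other listed members of the family were called higher and 1 lower. Of the other listed genes with a cytochrome P450 name, 6 of 17 were called higher and 11 lower. The 2 P450 members, *Os10g0164500* and *Os10g0165300*, had 32, 43 and 19 and 10, 19 and 9 in *Dap1*, against 1, 0 and 3 and 0, 0 and 0 in WT.

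*HSR201* (*Os12g0458100*), an acyltransferase family protein, had 15, 12 and 10 in *Dap1* and 0 in each WT library, at least 4.02-fold higher. *OsPOP2* (*Os01g0612500*), described as a phospholipase or carboxylesterase, had 6, 13 and 12 in *Dap1* and 2, 2 and 3 in WT, the lowest ratio of all at 4.34 (interval 1.87 to 11.7). *Os01g0860601*, described as similar to a root ferredoxin, an iron-sulphur electron carrier, had 21, 15 and 24 in *Dap1* and 0, 0 and 2 in WT.

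The 4 transport members lay at 0.537 to 0.85 FPKM in *Dap1*. *OsABCG35* (*Os01g0609200*), a pleiotropic drug resistance type ABC transporter, a class that exports metabolites and toxins across the plasma membrane with ATP, had 48, 34 and 54 in *Dap1* and 1, 1 and 3 in WT (ratio 26.6, interval 11.1 to 83.4). The MATE family antiporter *Os08g0550200* had 14, 23 and 35 in *Dap1* and 2, 0 and 0 in WT. *OsSTA74* (*Os02g0730600*), annotated to malate transport, had 15, 24 and 15 in *Dap1* and 3, 0 and 3 in WT (ratio 8.81, interval 3.80 to 25.1). Outside the members, 4 of 6 listed ABC and MATE transporters were called higher and 2 lower.

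The 4 transcription regulators lay at 0.233 to 3.08 FPKM in *Dap1*. *RISBZ1* (*Os07g0182000*), a basic leucine zipper activator of storage protein genes in the endosperm, had 10, 14 and 7 in *Dap1* and 1, 2 and 0 in WT (ratio 10.1, interval 3.16 to 51.7). *Pl* (*Os04g0557800*), an R-type basic helix-loop-helix protein of the family that switches on anthocyanin genes, had 16, 3 and 14 in *Dap1* and 0, 1 and 0 in WT, so its second *Dap1* library was at the limit that defines silence. *OsbHLH167* (*Os09g0519100*) had 12, 10 and 11 in *Dap1* and 3, 2 and 2 in WT (ratio 4.62, interval 2.01 to 12.4). *Os11g0149200*, annotated to negative regulation of transcription, had 23, 30 and 24 in *Dap1* and 0 in each WT library. The other listed bHLH and bZIP regulators split into 3 called higher and 8 called lower of 11. The 5 listed genes that match names of endosperm proteins, 4 of them lipid transfer proteins and none a member, split into 3 higher and 2 lower, and the 4 with an anther or pollen name, again none a member, into 2 and 2.

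Cell wall and signalling members were led by *MSTRG.19791*, described as early nodulin-like protein 3, with 139, 162 and 118 in *Dap1* and 1, 0 and 3 in WT (ratio 103, interval 39.8 to 378). *OsRALF-32* (*Os11g0449600*), of the small secreted RALF peptides that signal through receptor kinases at the cell surface, had 10, 15 and 16 in *Dap1* and 0 in each WT library, at least 4.38-fold higher. *OsPME6* (*Os01g0788400*), a pectin methylesterase, an enzyme that removes methyl groups from wall pectin, had 17, 4 and 11 in *Dap1* and 2, 3 and 0 in WT (ratio 6.27, interval 2.42 to 20.6). Only 3 other listed genes had a pectin, expansin or xyloglucan name, 1 called higher and 2 lower.

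Nucleic acid and cell division members had 8.27 to 22.5 scaled fragments per *Dap1* library on average. They were an RNA-binding protein, an ATPase annotated to cell division and 2 transposon-derived genes, *Os07g0248900* with a MuDR transposase domain and *Os11g0636050* annotated to transposition. *Os11g0636050* had 24, 26 and 18 in *Dap1* and 0 in each WT library. The other 2 listed genes with a transposon name were both called higher.

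Some members were close to another listed gene. Rice locus numbers run along the chromosome, and 17 of the 64 members with such a number (26.6%) had another listed gene within 200 of theirs, against 131 of the other 830 listed genes (15.8%). No test was made of this difference, since the members were chosen with the results known. Of the 17, 10 lay beside listed genes that are not members and 7 beside each other. The 14 neighbours outside the members were called higher in 13 cases and lower in 1. Of all listed genes, 56.9% were called higher and 41.7% lower. Several of the 14 belong to the row of small heat shock protein genes beside *Os01g0136050*, so they are not 14 separate cases. Locus numbers of the first annotation end in 00, later loci were numbered between them, and 18 of the 64 members (28.1%) had a number in between, against 75 of 830 (9.04%). Of these 18 members, 10 (55.6%) had a listed neighbour, against 7 of the 46 members with a round number (15.2%). The same split was not made for the other listed genes, so it cannot be called particular to the members.

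The pairs differ in the member's share of its neighbour's count and in how much that share varied. Pairs of unrelated genes were not set beside them. Besides the heat shock cluster and *Os02g0259850*, *Os01g0184050* lies 50 from *OsHsp18.0*, a class II small heat shock protein gene with 735, 700 and 674 fragments in *Dap1* and 12, 4 and 18 in WT. The member had 5, 14 and 32 in *Dap1* and 0 in each WT library. Its share of the neighbour's count was 0.680%, 2.0% and 4.75%, so the member's count varied more than that of its neighbour. A trio on chromosome 10 had no fragment in WT, with 35, 32 and 49 for *Os10g0460800*, 6, 11 and 15 for *Os10g0460766* and 11, 4 and 8 for *Os10g0460733* in *Dap1*. The bounds for the trio were at least 12.5-fold, at least 3.40-fold and at least 2.51-fold.

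Another 4 members with few fragments lay beside genes that were expressed in WT too. *Os01g0371300* (5, 11 and 9 in *Dap1*, 0 in each WT library) is 100 from *OsGSTF1* (1146, 1276 and 1394 in *Dap1*, 164, 133 and 123 in WT). *Os09g0559050* (13, 6 and 3 in *Dap1*, 2, 0 and 0 in WT) is 150 from *OsCPR3*, a cytochrome P450 reductase with 4109, 4566 and 4593 in *Dap1* and 963, 680 and 849 in WT. *OsM2* is 200 from *XB24* (391, 554 and 506 in *Dap1*, 230, 211 and 257 in WT). In these 3 pairs the member's count was at most 2.35% of the neighbour's in any *Dap1* library. *Os01g0651350* (12, 10 and 10 in *Dap1*, 0, 3 and 2 in WT) lies between the GDSL lipase genes *Os01g0651300* and *Os01g0651400*, which had log2 fold changes of 1.85 and 1.82.

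The exception in direction was *Os11g0149200*, whose neighbour *OsPSK2*, a precursor of the growth peptide phytosulfokine, was lower in *Dap1*, with a log2 fold change of -2.28 ± 0.37 (SE, edgeR adjusted p = 4.82e-06). Whether the authors' counting used the strand is not given in the sources used here, so fragments of a member and of a neighbour or antisense partner may not be separable, and the part of this in the members' counts was not tested.

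**Figure D3:**
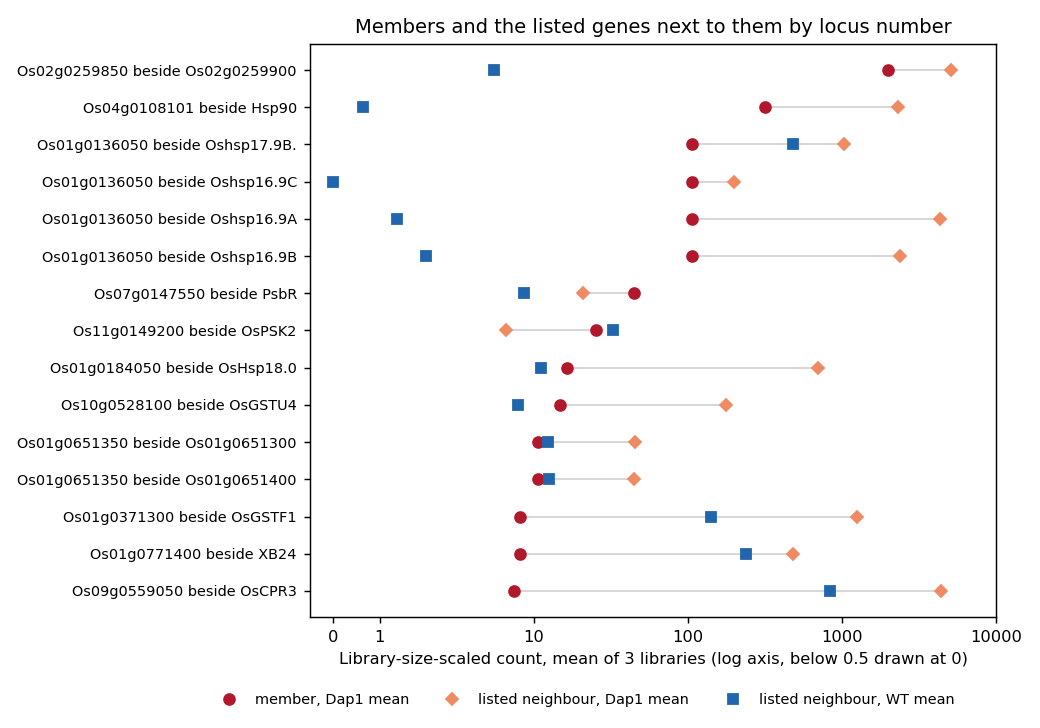
Scaled fragment counts (mean of 3 libraries, log axis, values below 0.5 at 0) of members in *Dap1* (circles) and of their neighbours outside the members in *Dap1* (diamonds) and in WT (squares), for neighbours within 201 in locus number. This limit takes in *Hsp90*, the listed gene by *Os04g0108101*, which lies just beyond the distance used in the text to call loci neighbours. The neighbours of *Os02g0259850*, *Os04g0108101* and *Os01g0136050* include genes below 10 in WT and above 100 in *Dap1*, while *OsGSTF1*, *XB24* and *OsCPR3* are above 100 in both groups, and *OsPSK2* alone is lower in *Dap1*.

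The annotation of the members was sparser. A gene symbol was given to 19 of 66 (28.8%), against 363 of the other 859 listed genes (42.3%). A biological process term was given to 23 (34.8%) against 492 (57.3%), and a KEGG class to 6 (9.09%) against 170 (19.8%). A description as hypothetical or unknown stood on 29 members (43.9%), against 204 of the other genes (23.7%), and these 204 split into 104 called higher and 99 called lower. The median transcript length implied by count and FPKM, relative to the table's typical gene, was 0.823 in the members and 1.02 in the others. By chromosome the members were 3.08% of the listed genes on chromosome 5 (2 of 65) and 14.0% on chromosome 9 (6 of 43), with 12 of 125 on chromosome 1. These shares rest on few genes and were not tested.

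The spread between the *Dap1* libraries is a description too, since the members entered the table through the authors' test on these same counts. A gene with few fragments and a wide spread passes such a test less easily, though some members of that kind are present. In the 16 members of 50 or more fragments the coefficient of variation (CV, the SD of the scaled counts over their mean) had a median of 9.44%, against 6.37% in 422 other listed genes of that depth. Counting error alone would give median CVs of 8.28% and 6.78% at these depths, and the CV was above its counting error in 11 of the 16 members and in 238 of the 422. The lowest CV was that of *Os02g0259850* (1.90%) and the highest that of *Os06g0581151* (66.3%). In the 50 members under 50 fragments the median CV was 27.0%, beside a median counting error of 28.3%. In 430 other listed genes under 50 fragments these were 25.9% and 22.5%.

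In 10 members the highest *Dap1* count was at least 3 times the lowest, and *Os06g0581151* was the only one of these above 50 fragments. The members had no common high library: the highest scaled count fell in *Dap1* library 1 for 23 members, in library 2 for 26 and in library 3 for 17. The lowest fell in library 1 for 20 members, in library 2 for 16 and in library 3 for 30, so library 3 was more often the low one. In 43 members each *Dap1* library had 10 or more fragments. A *Dap1* library at 3 or fewer occurred in 3 members, *Pl*, *Os09g0559050* and the non-coding transcript *Os09g0423550* (3, 21 and 6 in *Dap1*, 0, 2 and 0 in WT).

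**Figure D4:**
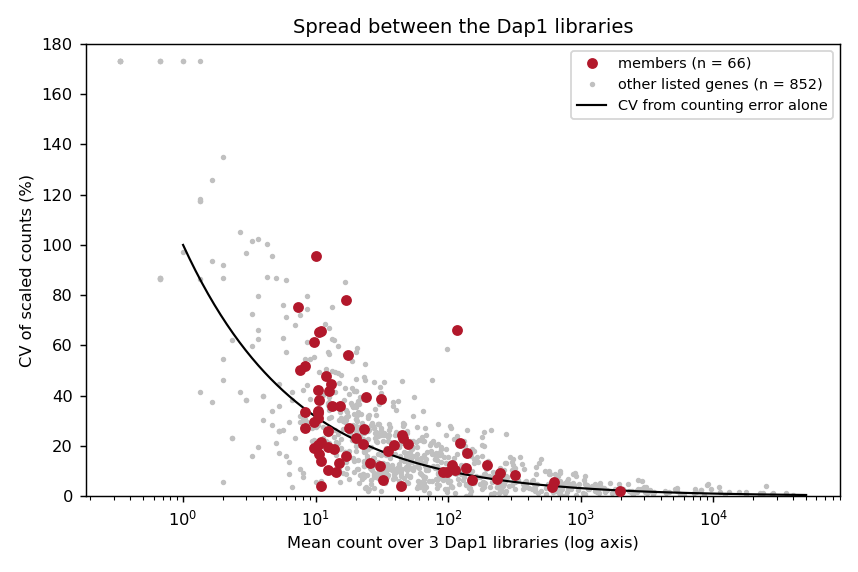
CV of scaled counts over the 3 *Dap1* libraries (%) against the mean count (log axis) for the 66 members (large points) and 852 other listed genes with *Dap1* fragments (small points), with the CV that counting error alone gives as a line. Among the members of 50 or more fragments, *Os06g0581151* stands farthest above the line at 66.3%.

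At the limit of the rule, the 19 members whose highest WT count was 3 had a median of 14.7 scaled fragments in *Dap1* (range 9.45 to 1965). A positive log2 fold change and a highest WT count of 4 or 5 marked 27 further genes, with a median of 20.5 (range 10.7 to 222). Both medians are of fragments and not per length. In the reverse direction the table holds 36 genes at or below 3 fragments in each *Dap1* library. These had a median of 11.3 scaled fragments in WT (range 7.73 to 132). Of the 36, 6 averaged 50 or more fragments in WT, against 16 of the 66 members in *Dap1*. The sets are not alike, since the rule left out 11 genes on the members' side and none of the 36. Those 11 had a median of 245 scaled fragments in *Dap1*.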

How the data were processed

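Poly(A) RNA from leaves of 3 *Dap1* and 3 ZH11 (WT) samples was sequenced. The authors used Fastp to clean reads, Bowtie2 to discard rRNA, HISAT2 to align to Nipponbare, StringTie to assemble transcripts and RSEM for expression. The versions, the genome build, the annotation release and any use of the strand are not given in the sources used here. The authors deposited whole-number counts per gene and FPKM for the 925 genes they called. The deposited mean FPKM, log2 fold change, p-value and FDR columns hold the authors' own comparison and were not used.

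Library sizes came from dividing each count by its FPKM and taking the median of the 258 genes whose FPKM was 2 or more throughout. Counts were tested over all 925 genes with edgeR 4.0.16 (glmQLFit, glmQLFTest; R 4.3.3) with Benjamini-Hochberg adjustment, and called at 0.05 with a change beyond 1 on the log2 scale. The SE is the log2 fold change over the square root of F. On counts simulated for this comparison over 925 genes, 200 of 200 changed genes were recovered with 0 false calls. Recovery where most genes differ, as in the listed genes (526 called higher and 386 lower), was not tested. The p-values set the difference between groups against the spread between these samples. The listed genes had been selected by the authors' own test on the same samples, so these p-values are not independent tests. Replicates of a group differed beyond sampling noise, and the depth over all genes is unknown.

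Members at 0 in every WT library were given a bound against 3 counts per WT library, and the others the ratio of scaled count totals with an exact conditional (Clopper-Pearson) 95% interval. Levels per length of different genes were compared on FPKM, while sums, shares and ratios of fragments between genes are counts, which gene length also sets. Named were members with a symbol, the 12 with the highest *Dap1* count and those within 200 in locus number of a listed gene. A few more were chosen for naming once values had been seen. The members, gene lists and roles were chosen with earlier results of these data known. Lists were matched on symbol and description, and the RING, late embryogenesis and MATE patterns were narrowed after the table was read, since they also matched unrelated names. Identifiers of 0 members and symbols of 3 of 19 matched the RefSeq gene table, so no coordinates or sequences are given, and a planned count of heat shock elements in promoters was not run. Alternatives were other scalings (TMM, DESeq2 1.42.0), tests (DESeq2, limma 3.58.1), filters, limits, distances, a replicate block and each library left out. Other steps ran in Python 3.11.15 with scipy 1.17.1, pandas 2.3.3 and, for plots, matplotlib 3.10.9.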

Additional observations from a re-analysis of the deposited data

How the results depend on the processing

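The number of members depends on the limit: 24 genes had 0 counts in every WT library, 35 had 1 or fewer and 163 had 10 or fewer, against 66 at 3 or fewer, and leaving out a WT library gave 72 to 84. The listed genes called higher numbered 526, and 342 with TMM factors, 251 with DESeq2 size factors and 276 with limma on log2(FPKM + 1). These factors assume that most listed genes do not change, and they lowered the median log2 fold change of the table by 0.45 (TMM) and 0.85 (DESeq2). Of the members, 29 were called with limma on log2(FPKM + 1), and 31 with a mean count of at least 10, where 35 were not tested. The median bound on the members' log2 fold change was 2.44, and 4.03 with a floor of 1 count, 3.63 over the WT mean plus 1 count, 2.0 with TMM factors and 1.60 with DESeq2 size factors. Across single members the lowest log2 bound was 1.28, and 0.43 with DESeq2 size factors and 0.50 without *Dap1* replicate 1. Neighbouring listed genes were found for 11 members within 100 and for 27 within 1000 in locus number, against 17 within 200. The median CV was 12.3% from a mean *Dap1* count of 20 up, against 9.44% from 50 up. Except where a construction shows it, the cause was not tested.

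Leaving out 1 library gave 502 to 515 listed genes called higher, 65 to 66 members called higher and a median bound of 2.36 to 2.55. The member lost, without *Dap1* replicate 2, was *Os09g0423550*. Replicate numbers did not pair the samples (correlations of -0.01, -0.02 and -0.03 over 431 genes), and with the replicate block 525 listed genes and 66 members were called higher. Depth limits the 36 members that averaged under 20 fragments in *Dap1*, and the WT counts of 0 to 3 limit every ratio and bound.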
